A study of Mus musculus with 50 samples.

Results

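The comparison described here asked whether microglia of adult mice that had been exposed to early-life stress (ELS) differed in gene expression from microglia of control (CTR) mice after an inflammatory challenge. It held the 12 mice of postnatal day 200 that had received lipopolysaccharide (LPS), the cell wall component of Gram-negative bacteria, of the 50 mice in the series, and members were chosen by condition and treatment as the sample labels give them. The ELS-LPS group had 5 mice and the CTR-LPS group had 7. All 12 were male C57BL/6J mice and were killed 3 h after an intraperitoneal injection of 1 mg/kg LPS from Escherichia coli O111:B4. ELS mice had been raised with limited nesting and bedding material in the early postnatal period, and CTR mice with standard amounts. Microglia were sorted from the hippocampus as live nucleated cells with intermediate CD45 and positive CD11b, and polyadenylated RNA was sequenced from each mouse. The age-matched ELS-PBS (6 mice) and CTR-PBS (7 mice) groups, injected with phosphate-buffered saline, served as the reference for the effect of ELS without LPS. Mice are named by the start of their labels, such as P200_11.2, and the number before the point was taken here as the nest. The 5 ELS-LPS mice came from 5 nests, the 7 CTR-LPS mice also from 5 nests, and no nest held both conditions, so that nest and condition could not be fully told apart.

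LPS is bound by CD14 and sensed by Toll-like receptor 4 (TLR4), and the signal passes through the adaptors MyD88 and TRIF to the transcription factor NF-kB and to interferon regulatory factors. NF-kB switches on cytokine and chemokine genes within hours, and it also switches on its own inhibitors, such as IkB-alpha. These and other feedback inhibitors, such as the phosphatase DUSP1 that switches off p38 and JNK, end the response. Interferon made by the same cells switches on a further layer of interferon-stimulated genes. Glucocorticoids, the hormones of the stress axis, dampen this programme, and microglia with a history of stress or inflammation are known to respond to a later challenge with either an exaggerated or a blunted response.

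Total counts were 13900212 to 42231258 in the CTR-LPS mice (median 20299644) and 15338010 to 20923733 in the ELS-LPS mice (median 18474916), with 16913 to 19575 genes detected per mouse. The microglial markers P2ry12, a purinergic receptor, and Tmem119, a membrane protein, were at 6942 to 12230 and 4556 to 8909 CPM (counts per gene scaled to a common library size) in CTR-LPS and at 7012 to 11200 and 6605 to 12060 CPM in ELS-LPS, so these defining markers of the labelled cell type were present in every mouse. Markers of border-associated macrophages summed to at most 12.14 CPM in any mouse and those of neurons to at most 15.7 CPM, and Lyve1, Ly6g, Cd3g, Cd8a and Ms4a1 were at 0 in all 12 mice. Larger sums for neutrophils (252 to 502 CPM in CTR-LPS, 306 to 452 in ELS-LPS), astrocytes (492 to 620 and 425 to 588) and endothelial cells (677 to 876 and 731 to 1270) came mostly from Csf3r, Slc1a3 and Bsg, which microglia also express. Sums for oligodendrocytes (118 to 200 CPM) and for T, NK and B cells (25.4 to 118 CPM, highest in mouse P200_11.2) came mostly from Cnp and Cd79b, those for oligodendrocyte precursors were at most 2.97 CPM, and those for red blood cells were at most 2.84 CPM except for 29.6 CPM in 1 CTR-LPS mouse. Choroid plexus and ependymal markers, mainly Ttr, summed to 1.36 to 10.04 CPM in CTR-LPS and 0 to 1.92 CPM in ELS-LPS, and their part in the results below was not tested. In bulk samples, fewer cells of a type and less RNA per cell cannot be told apart. Some libraries stood apart. ELS-LPS mouse P200_11.2 had the highest value of all 12 mice in 17.6% of genes and the lowest in 14.9%, CTR-LPS mouse P200_5.3 in 12.4% and 10.4%, and the other 10 mice were highest in 4.2% to 10.5% of genes each (mouse P200_20.1 in 9.12%). For the gene lists and genes whose values moved most without these mice, or without ELS-LPS mouse P200_20.1, the value without the mouse is also given.

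The data did not show a difference between ELS-LPS and CTR-LPS mice in the level of any single gene. Of 16696 genes tested with the quasi-likelihood test of edgeR, 0 (0.0%) passed an adjusted p of 0.05 with an absolute log2 fold change above 1, and the smallest adjusted p was 0.286. Before adjustment 798 genes (4.78%) had a p under 0.05, with 353 (2.11%) on the ELS-LPS side and 445 (2.67%) on the CTR-LPS side. Most of these 798 were genes at a low level. The share was 8.962% (506 of 5646 genes) at a mean log2 CPM under 1. It was lower among more abundant genes, at 2.134% (96 of 4499) for a mean of 1 to 4 and 2.992% (196 of 6551) for at least 4. The same test called 26 genes (0.156%) between ELS-PBS and CTR-PBS, 19 (0.114%) of them higher and 7 (0.0419%) lower in ELS. For LPS against PBS it called 1606 genes (9.62%) in CTR mice, of which 1005 (6.02%) were higher after LPS, and 1313 genes (7.86%) in ELS mice, of which 783 (4.69%) were higher. Other tools called few genes: the likelihood-ratio test of edgeR called 10, DESeq2 called 2 (Mpzl1 and Nusap1), and limma voom with the nest as a random effect called 0, with 418 genes at an unadjusted p under 0.05. The median log2 fold change of all genes was -0.01, with 47.7% of genes positive and 51.6% negative, the shares against which the gene groups below can be read.

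The precision depended on the level of the gene. Among the 6551 genes with a mean log2 CPM of at least 4 over the 12 mice, the median standard error of the log2 fold change was 0.22 and 91.33% had a 95% interval that lay wholly between -1 and 1, so a 2-fold difference in either direction lay outside their interval. The share was 41.36% of 4499 genes at a mean log2 CPM of 1 to 4. It was only 1.258% of 5646 genes under 1, where the median standard error was 1.03. In the rest of these a difference of 2-fold or more was not excluded at this depth and group size. The largest fold changes in the plot of all genes belonged to this last class.

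**Figure D1:**
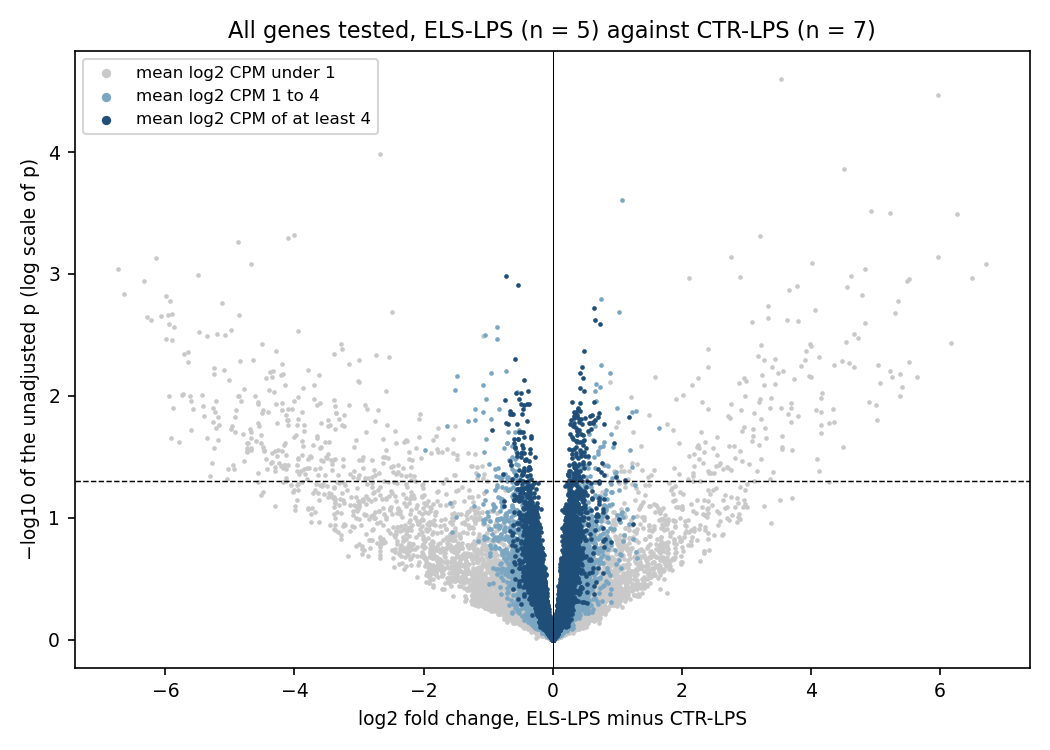
Log2 fold change of each of the 16696 genes (x axis, ELS-LPS minus CTR-LPS) against −log10 of its unadjusted p from the edgeR quasi-likelihood test (y axis), coloured by mean log2 CPM over the 12 mice; the dashed line marks an unadjusted p of 0.05. Fold changes beyond 2 on the log2 scale are nearly all of genes with a mean log2 CPM under 1, and 0 genes passed the adjusted threshold.

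Mpzl1, which encodes a cell surface glycoprotein of the myelin protein zero family, had the smallest p of all genes (chromosome 1: 165419752 to 165462141, minus strand, GRCm39). Its level was 0 to 0.315 CPM in CTR-LPS mice (median 0.0666) and 3.84, 1.7, 0.804, 1.1 and 0 CPM in the ELS-LPS mice, in the order P200_2.2, P200_4.2, P200_11.2, P200_17.3 and P200_20.1 that is kept throughout. In words, 4 ELS-LPS mice lay above every CTR-LPS mouse and mouse P200_20.1 was at 0. The log2 fold change was 3.53 ± 0.76 (SE) with an adjusted p of 0.286 by the edgeR quasi-likelihood test, and without mouse P200_20.1 it was 3.85 with an adjusted p of 0.0473, the only call in any fit that left out 1 mouse. Nusap1, a spindle protein of dividing cells, went the other way, at 0.333 to 3.51 CPM in CTR-LPS (median 2.03) and 0.221, 0.234, 0.433, 0.549 and 0 CPM in ELS-LPS. The groups overlapped, since the lowest CTR-LPS mouse lay within the ELS-LPS range, and the log2 fold change was -2.67 ± 0.63 (adjusted p 0.435). Both genes were at a few CPM at most.

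Among genes with a mean log2 CPM of at least 1, the 10 with the smallest p on the higher side were Zfp30, Nudt9, Ppdpf, Rab3a, Arl6ip4, Hgh1, Tspan3, Lemd2, Hagh and Ppp1r13b, all with adjusted p of 0.595 or above. Zfp30 is a KRAB zinc finger repressor, Nudt9 and Hagh are enzymes that hydrolyse ADP-ribose and glutathione thioesters, Rab3a is a GTPase of regulated exocytosis, Tspan3 a tetraspanin and Lemd2 an inner nuclear membrane protein. Zfp30 (chromosome 7: 29483373 to 29496011, plus strand) was at 0.729 to 4.14 CPM in CTR-LPS (median 2.13) and at 3.69, 5.38, 6.37, 3.62 and 3.9 CPM in ELS-LPS. Every ELS-LPS mouse lay above the CTR-LPS median, but the groups overlapped at the CTR-LPS maximum. The log2 fold change was 1.07 ± 0.27 (95% interval 0.53 to 1.62, p = 0.000249, adjusted p = 0.595, edgeR quasi-likelihood test) and ranged from 0.93 to 1.31 when each mouse was left out in turn. LPS itself lowered Zfp30 in both conditions, with log2 fold changes of -2.40 in CTR mice (adjusted p = 2.76e-10) and -1.09 in ELS mice (adjusted p = 0.00618), and the difference between the 2 effects had an adjusted p of 0.293 in the interaction test. Ppdpf was at 11.4 to 20.7 CPM in CTR-LPS (median 14.9) and at 20.6, 22.4, 40.7, 21.2 and 16.5 CPM in ELS-LPS. Here mouse P200_11.2 was far above the rest, and the log2 fold change fell from 0.64 to 0.38 without it. Nudt9 was at 5.29 to 16.9 CPM in CTR-LPS (median 13.9) and at 9.59, 18.14, 34.6, 22.5 and 28.9 CPM in ELS-LPS, where 4 of 5 mice exceeded the CTR-LPS maximum. The other 7 had log2 fold changes of 0.45 (Hagh) to 1.03 (Rab3a). Without mouse P200_11.2 those of Rab3a, Arl6ip4 and Hagh were 0.46, 0.32 and 0.22, against 1.03, 0.66 and 0.45 with it.

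On the lower side the 10 genes were Marf1, Ralgps2, Atad2, L3mbtl3, Nav1, Nf1, Phf3, Rpgrip1l, Zfp874b and Xpr1. Atad2 is a bromodomain ATPase, L3mbtl3 reads methylated histones, Phf3 binds the elongating polymerase and Nf1 inactivates Ras. Marf1, an RNA-binding regulator of meiosis (chromosome 16: 13927030 to 13981215, minus strand), was at 24.2 to 37.3 CPM in CTR-LPS (median 25.6) and at 22.1, 16.9, 10.0, 14.7 and 20.9 CPM in ELS-LPS. All 5 ELS-LPS mice lay below all 7 CTR-LPS mice. The log2 fold change was -0.73 ± 0.21 (95% interval -1.15 to -0.31, adjusted p = 0.641), and -0.59 without mouse P200_11.2. Ralgps2, an exchange factor for Ral GTPases, was at 28.7 to 41.8 CPM in CTR-LPS (median 35.4) and at 22.1, 23.2, 21.8, 31.3 and 22.1 CPM in ELS-LPS, so that mouse P200_17.3 alone lay within the CTR-LPS range. Nav1, a neuron navigator protein that binds microtubules, was at 10.5 to 18.8 CPM in CTR-LPS (median 13.7) and at 3.98, 6.09, 11.9, 9.11 and 7.66 CPM in ELS-LPS, where mouse P200_11.2 fell inside the CTR-LPS range. The other 7 had log2 fold changes of -0.44 (Xpr1) to -1.48 (Zfp874b) and adjusted p of 0.727 or above.

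A gene can also be read by whether the groups overlap at all. In 26 of 16696 genes (0.156%) they did not, 9 (0.0539%) with every ELS-LPS mouse higher and 17 (0.102%) with every ELS-LPS mouse lower. Among the 11050 genes with a mean log2 CPM of at least 1 the higher set held 5 genes (0.0452%) and the lower set 13 (0.118%). Of the lower set Marf1 is described above, and the larger lower set as a whole is not listed here. The 5 were named after their values were seen: Slc25a1, the mitochondrial citrate carrier, Ctsf, a lysosomal cysteine protease, Itm2c, an inhibitor of amyloid precursor processing, Ifit3b, an interferon-stimulated gene with a near-identical neighbour that could share its reads, and 0610012G03Rik. Slc25a1 was at 14.8 to 28.4 CPM in CTR-LPS (median 24.4) and at 30.8, 34.4, 58.6, 30.1 and 31.8 CPM in ELS-LPS. Ctsf was at 417 to 503 CPM in CTR-LPS (median 486) and at 517, 546, 596, 534 and 533 CPM in ELS-LPS, with a log2 fold change of 0.19 (95% interval -0.12 to 0.51). Itm2c was likewise separated by a narrow margin, at 1063 to 1471 CPM in CTR-LPS (median 1379) and at 1479, 1472, 1837, 1474 and 1477 CPM in ELS-LPS. In this gene 4 of the 5 ELS-LPS mice lay within a few CPM of the highest CTR-LPS mouse.

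The receptor and signalling genes that carry the LPS signal were divided in direction. Of 39 members tested, 23 had a positive and 16 a negative log2 fold change, 0 were called, 0 were higher and 2 lower at an unadjusted p under 0.05, and the median was 0.01 against -0.01 for all genes. The 2 were Tlr4 itself and Tbk1, the kinase that activates interferon regulatory factor 3. Tlr4 was at 127 to 269 CPM in CTR-LPS (median 190) and at 145, 214, 57.3, 152 and 111 CPM in ELS-LPS. Mice P200_11.2 and P200_20.1 were below every CTR-LPS mouse and mouse P200_4.2 was above the CTR-LPS median, with a log2 fold change of -0.51 ± 0.25 (95% interval -1.02 to -0.0025), or -0.32 without mouse P200_11.2. Tbk1 was at 57.8 to 99.3 CPM in CTR-LPS (median 81.5) and at 72.2, 61.9, 32.6, 66.7 and 67.5 CPM in ELS-LPS, and its log2 fold change of -0.40 ± 0.15 was -0.24 without mouse P200_11.2. Cd14, the co-receptor, is itself an LPS-responsive gene, with log2 fold changes of LPS over PBS of 2.04 in CTR mice and 2.32 in ELS mice (adjusted p = 8.22e-13 and 6.93e-13). Its level was 1931 to 5271 CPM in CTR-LPS (median 3960) and 5588, 2565, 2771, 6066 and 8416 CPM in ELS-LPS, so 3 ELS-LPS mice exceeded every CTR-LPS mouse and the other two lay in the lower part of the CTR-LPS range. The log2 fold change was 0.35 ± 0.19, and 0.10 without mouse P200_20.1.

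Cytokine and chemokine genes had mostly positive fold changes, which were smaller without single mice of either group. Of 15 pro-inflammatory cytokine genes tested, 13 had a positive and 2 a negative log2 fold change, 0 were called and 1 was higher at an unadjusted p under 0.05, with a median of 0.40. Without mouse P200_20.1 the median was 0.01 and 8 of 15 were positive, and without mouse P200_11.2 it was 0.36. Of 17 chemokine genes 16 were positive and 1 negative, again with 0 called, and their median of 0.29 became -0.02 without mouse P200_20.1 and 0.45 without mouse P200_11.2. Without CTR-LPS mouse P200_5.3 the medians were 0.21 for the cytokine and 0.13 for the chemokine genes. Mouse P200_20.1 had the highest value of the 12 mice in 8 of 14 cytokine genes and 11 of 14 chemokine genes with a mean log2 CPM of at least 1, and CTR-LPS mouse P200_5.3 the lowest in 6 and 10 of them. The mean deviation of the chemokine genes from the 12-mouse mean, on the log2 scale, was 0.25, -0.47, -0.81, 0.69 and 1.3 in the ELS-LPS mice and -1.38 to 0.74 in the CTR-LPS mice. The ELS-LPS mice thus covered much of the CTR-LPS range. They went above it in mouse P200_20.1 and did not reach its low end, which was held by mouse P200_5.3. Monocyte markers were also highest in mouse P200_20.1, summing to 12.5, 4.51, 6.0, 11.7 and 20.7 CPM in the ELS-LPS mice and 5.18 to 11.07 CPM in CTR-LPS (median 7.33), and their part in these values was not tested.

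Single members showed the same spread. Ebi3, the shared subunit of interleukin-27 and interleukin-35, had the smallest p of the cytokine list, at 48.7 to 90.0 CPM in CTR-LPS (median 63.4) and 94.2, 52.9, 96.9, 88.2 and 107 CPM in ELS-LPS. Mice P200_2.2, P200_11.2 and P200_20.1 exceeded all CTR-LPS mice and mouse P200_4.2 was near the bottom of their range, and the log2 fold change was 0.40 ± 0.16 (95% interval 0.08 to 0.73, adjusted p = 0.862) and 0.32 without mouse P200_20.1. Tnfsf9, the ligand of the co-stimulatory receptor 4-1BB, was at 104 to 534 CPM in CTR-LPS (median 319) and at 496, 118, 109, 655 and 1540 CPM in ELS-LPS. Its log2 fold change of 0.79 ± 0.43 was 0.03 without mouse P200_20.1. Il12b, the p40 subunit of interleukin-12 and interleukin-23, was at 17.5 to 96.3 CPM in CTR-LPS (median 51.07) and at 78.4, 50.1, 37.0, 137 and 392 CPM in ELS-LPS, with a log2 fold change of 1.25 ± 0.77 and of 0.37 without mouse P200_20.1. Il1rn, the interleukin-1 receptor antagonist, followed the same order, at 7.22 to 170 CPM in CTR-LPS (median 90.1) and at 109, 35.0, 31.4, 269 and 508 CPM in ELS-LPS. In all these genes mice P200_17.3 and P200_20.1 were high and mice P200_4.2 and P200_11.2 low or in the lower part of the range, with Ebi3 in mouse P200_11.2 as the exception.

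The classical LPS cytokines differed less. Tnf was at 134 to 433 CPM in CTR-LPS (median 225) and at 277, 137, 65.1, 368 and 664 CPM in ELS-LPS, with a log2 fold change of 0.22 (95% interval -0.81 to 1.25). Il1b was at 66.4 to 668 CPM in CTR-LPS (median 392) and at 474, 253, 206, 659 and 1081 CPM in ELS-LPS, with a log2 fold change of 0.40 (95% interval -0.73 to 1.52). Both changed sign without mouse P200_20.1, to -0.29 and -0.03. LPS over PBS gave Tnf a log2 fold change of 6.5 in CTR mice and 6.59 in ELS mice, so the difference between the LPS groups was small beside the response itself, although its interval still allowed a 2-fold difference. Il6 was at 28.4 to 62.8 CPM in CTR-LPS (median 41.8) and at 47.2, 33.2, 14.5, 69.6 and 67.2 CPM in ELS-LPS, with a log2 fold change of 0.07 (95% interval -1.18 to 1.32) that was -0.10 without mouse P200_20.1. Ccl3 (MIP-1alpha) was at 87.8 to 462 CPM in CTR-LPS (median 233) and at 329, 138, 123, 524 and 1063 CPM in ELS-LPS, with a log2 fold change of 0.70 that was 0.06 without mouse P200_20.1. Ccl4, Ccl9 and Cxcl2 had log2 fold changes of 0.45, 0.21 and 1.31, or 0.06, 0.09 and 0.53 without mouse P200_20.1, and Cxcl2, a neutrophil attractant, was at 17.12 CPM in mouse P200_20.1 and at no more than 7.03 CPM in CTR-LPS.

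**Figure D2:**
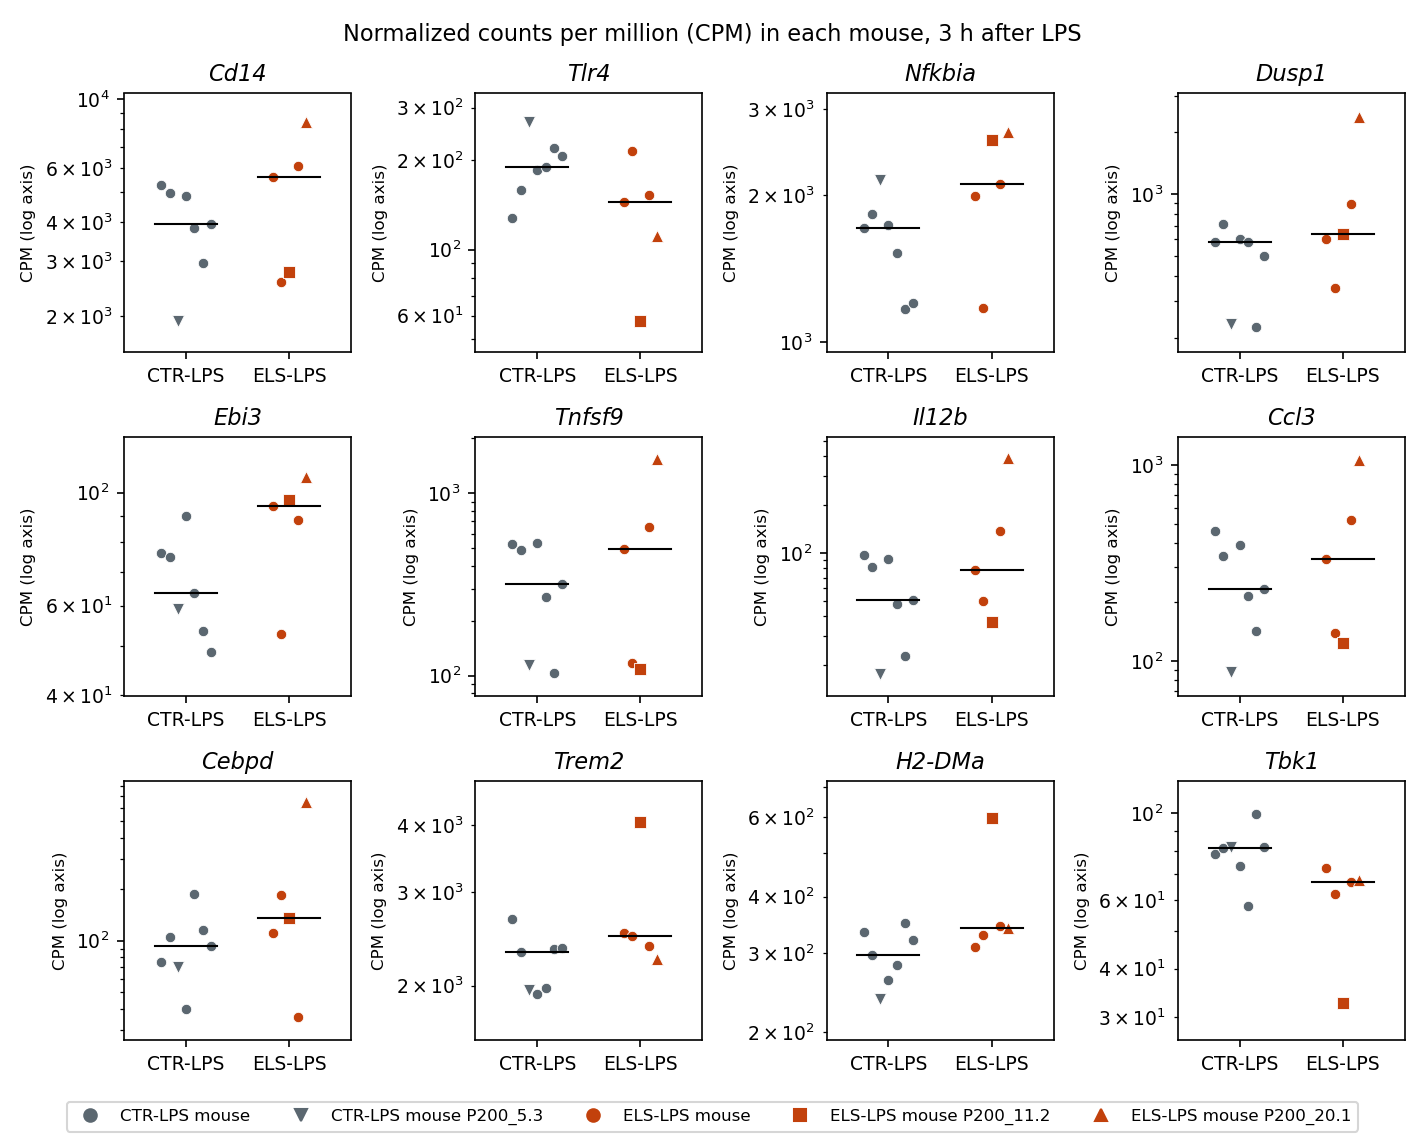
CPM of 12 genes (log y axis) in each CTR-LPS mouse (grey) and ELS-LPS mouse (orange) 3 h after LPS; black lines are group medians, and CTR-LPS mouse P200_5.3, ELS-LPS mouse P200_11.2 and ELS-LPS mouse P200_20.1 have their own symbols. Mouse P200_20.1 is the highest of the 12 mice in Cd14, Dusp1, Tnfsf9, Il12b, Ccl3 and Cebpd, mouse P200_11.2 is the highest in Trem2 and H2-DMa and the lowest in Tlr4 and Tbk1, and the groups overlap in every gene shown.

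The feedback inhibitors of the LPS response, listed here as NF-kB feedback inhibitors, leaned the same way as the cytokines. Of 28 tested, 22 had a positive and 6 a negative log2 fold change, 0 were called, 2 were higher and 0 lower at an unadjusted p under 0.05, and the median was 0.21, or -0.07 without mouse P200_20.1 and 0.31 without mouse P200_11.2. The 2 were Nfkbia and Dusp1. Nfkbia, which encodes IkB-alpha and holds NF-kB in the cytoplasm, was at 1170 to 2152 CPM in CTR-LPS (median 1712) and at 1996, 1174, 2603, 2108 and 2698 CPM in ELS-LPS. Mice P200_11.2 and P200_20.1 exceeded every CTR-LPS mouse, and the log2 fold change was 0.39 ± 0.19 (95% interval 0.01 to 0.76, adjusted p = 1), beside LPS effects of 3.56 and 4.07 in CTR and ELS mice. Dusp1, the phosphatase that switches off p38 and JNK and that glucocorticoids also induce, was at 224 to 712 CPM in CTR-LPS (median 583) and at 602, 350, 637, 888 and 2375 CPM in ELS-LPS. Its log2 fold change was 0.98 ± 0.48 and 0.33 without mouse P200_20.1. Socs1, an inhibitor of cytokine receptor signalling, was at 4.0 to 6.33 CPM in CTR-LPS (median 4.37) and at 8.04, 6.09, 3.9, 5.33 and 28.7 CPM in ELS-LPS, a log2 fold change of 1.11 that was 0.28 without mouse P200_20.1.

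The promoters of these genes were searched for the binding sequence of NF-kB. In windows from 250 bases before to 50 bases after the start (RefSeq, GRCm38.p6), the degenerate 10-base NF-kB consensus, searched on both strands with overlapping matches allowed, was present in 14 of 49 (28.57%) of the cytokine, chemokine and feedback inhibitor genes that matched a window, of 60 tested, and in 1480 of 32851 (4.505%) of all windows. The windows of Nfkbia (chr12:55492598-55492897, minus strand), Ebi3 (chr17:55952373-55952672, plus strand) and Cxcl2 (chr5:90903649-90903948, plus strand) are shown because they belong to an inhibitor, a cytokine subunit and a chemokine of this section, with the matching bases in capitals. In Cxcl2 the capitals cover 2 overlapping matches.
Nfkbia: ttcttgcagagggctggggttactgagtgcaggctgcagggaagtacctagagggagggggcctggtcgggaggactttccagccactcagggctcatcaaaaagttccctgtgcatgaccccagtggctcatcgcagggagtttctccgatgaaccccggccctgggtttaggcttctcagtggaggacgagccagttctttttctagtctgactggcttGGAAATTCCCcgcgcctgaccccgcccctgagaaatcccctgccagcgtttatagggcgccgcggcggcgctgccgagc
Ebi3: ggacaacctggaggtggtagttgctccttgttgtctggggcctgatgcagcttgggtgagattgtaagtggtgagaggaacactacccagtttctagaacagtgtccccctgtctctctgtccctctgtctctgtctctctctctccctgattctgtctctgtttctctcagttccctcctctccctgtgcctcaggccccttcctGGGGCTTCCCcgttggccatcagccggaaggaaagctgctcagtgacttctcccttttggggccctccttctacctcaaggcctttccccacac
Cxcl2: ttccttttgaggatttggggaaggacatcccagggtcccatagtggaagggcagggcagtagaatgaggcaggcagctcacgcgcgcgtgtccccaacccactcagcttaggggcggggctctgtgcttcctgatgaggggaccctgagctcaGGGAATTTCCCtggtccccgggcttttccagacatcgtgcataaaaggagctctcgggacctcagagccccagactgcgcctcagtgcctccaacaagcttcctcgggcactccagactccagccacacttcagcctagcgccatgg

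Acute-phase and antimicrobial genes, which include iron-binding and bacteria-binding proteins, had 11 positive and 3 negative log2 fold changes among 14 tested, 4 of them higher and 0 lower at an unadjusted p under 0.05, and a median of 0.83 (0.25 without mouse P200_20.1). The 4 were Hp, Slpi, Lcn2 and Ptges, all with a mean log2 CPM under 1. Of the 14, only 4 had a mean log2 CPM of at least 1, and these had a median of 0.22. Sod2, the mitochondrial superoxide dismutase, was at 43.1 to 123 CPM in CTR-LPS (median 82.1) and at 97.1, 59.2, 57, 133 and 170 CPM in ELS-LPS. Ptgs2 (cyclooxygenase-2) was at 41.5 to 330 CPM in CTR-LPS (median 214) and at 246, 88.8, 11.13, 332 and 437 CPM in ELS-LPS. Mouse P200_11.2 had the lowest Ptgs2 level of the 12 mice, and the log2 fold change was 0.21 (95% interval -1.10 to 1.53), or -0.18 without mouse P200_20.1. Hp, the haemoglobin scavenger haptoglobin, was at 0 to 1.75 CPM in CTR-LPS with a median of 0, and at 15.4, 0, 0.866, 1.04 and 4.77 CPM in ELS-LPS, so its log2 fold change of 4.17 ± 1.52 rested on mice P200_2.2 and P200_20.1. Trem1, a receptor that amplifies TLR signals, was at 9.59 to 26.5 CPM in CTR-LPS (median 22.6) and at 36.2, 10.9, 6.62, 27.5 and 43.4 CPM in ELS-LPS, with 3 mice above and 1 below all CTR-LPS mice.

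Interferon-stimulated genes were also mostly positive, and less so without mouse P200_20.1. Of 35 tested, 23 had a positive and 12 a negative log2 fold change, 0 were called, 1 was higher at an unadjusted p under 0.05, and the median was 0.36, or 0.04 with 18 of 35 positive without mouse P200_20.1. Mouse P200_20.1 had the highest value in 16 of 27 members with a mean log2 CPM of at least 1, and the mean log2 deviation of these members was -0.11, -0.57, -0.12, 0.25 and 0.91 in the ELS-LPS mice against -0.31 to 0.18 in the CTR-LPS mice. Mouse P200_4.2 thus lay below, and mice P200_17.3 and P200_20.1 above, every CTR-LPS mouse. Ifitm3, which blocks virus entry from endosomes, was at 4.32 to 12.5 CPM in CTR-LPS (median 6.78) and at 11.07, 6.2, 14.6, 14.9 and 20.3 CPM in ELS-LPS, a log2 fold change of 0.86 ± 0.40. Usp18, which removes ISG15 from proteins and restrains interferon signalling, was at 11.07 to 22.8 CPM in CTR-LPS (median 16.8) and at 14.7, 15.7, 21.5, 28.0 and 55 CPM in ELS-LPS. Eif2ak2, the double-stranded RNA kinase PKR, had the opposite sign, at 11.5 to 41.9 CPM in CTR-LPS (median 26.6) and at 17.34, 14.6, 17.4, 17.13 and 21.8 CPM in ELS-LPS, with a log2 fold change of -0.56 ± 0.28. The Eif2ak2 values of the ELS-LPS mice lay close together, within the lower part of the CTR-LPS range. The guanylate-binding proteins and immunity-related GTPases were positive in 8 of 14 cases with a median of 0.02, and in 4 of 14 with a median of -0.24 without mouse P200_20.1.

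Antigen presentation genes were mostly positive, by small amounts. All 8 class II genes tested had a positive log2 fold change, with 0 called, 1 at an unadjusted p under 0.05 and a median of 0.29, and 14 of 16 class I genes were positive with 0 called, 0 at an unadjusted p under 0.05 and a median of 0.23. Without mouse P200_11.2 the medians were 0.15 for class II, with 6 of 8 positive and 0 at an unadjusted p under 0.05, and 0.12 for class I. Class I genes form a family of near-identical copies, so the counts of single members are uncertain. H2-DMa, a subunit of the chaperone that loads peptides onto class II molecules, was at 237 to 350 CPM in CTR-LPS (median 297) and at 309, 329, 599, 344 and 341 CPM in ELS-LPS. All 5 ELS-LPS mice lay above the CTR-LPS median, but only mouse P200_11.2 exceeded the CTR-LPS maximum, and the log2 fold change was 0.37 ± 0.15 (adjusted p = 0.862) and 0.15 without mouse P200_11.2. H2-Ab1, a class II chain, was at 13.2 to 24.5 CPM in CTR-LPS (median 17.7) and at 21.2, 22.6, 31.0, 22.4 and 25.2 CPM in ELS-LPS.

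Microglial identity and clearance genes had small median differences. Of 22 homeostatic microglia genes, 16 had a positive and 6 a negative log2 fold change, between -0.22 and 0.32, with 0 called, 1 at an unadjusted p under 0.05 and a median of 0.14 (0.06 without mouse P200_11.2 and 0.08 without mouse P200_5.3), and all 22 intervals lay between -1 and 1. Of 31 phagocytosis genes 17 were positive and 14 negative, with 0 called and a median of 0.04 that ranged from -0.03 to 0.03 without 1 of these 3 mice. Their log2 fold changes ran from -3.14 to 0.58, with 1 member at an unadjusted p under 0.05. In 24 of the 31 the interval lay between -1 and 1, and in the rest a 2-fold difference was not excluded. Trem2, the lipid receptor of phagocytic microglia, had the smallest p of both lists, at 1930 to 2667 CPM in CTR-LPS (median 2309) and at 2513, 2482, 4058, 2372 and 2248 CPM in ELS-LPS. Mouse P200_11.2 stood above all others and mouse P200_20.1 below the CTR-LPS median, and the log2 fold change of 0.30 ± 0.11 (p = 0.0113, adjusted p = 0.862, edgeR quasi-likelihood test) was 0.11 without mouse P200_11.2. Tyrobp, its signalling adaptor, was at 850 to 1367 CPM in CTR-LPS (median 1017) and at 1032, 1137, 1678, 1140 and 1158 CPM in ELS-LPS. Tmem119 was at 4556 to 8909 CPM in CTR-LPS (median 6571) and at 7516, 7857, 12060, 7334 and 6605 CPM in ELS-LPS, the highest again in mouse P200_11.2.

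**Figure D3:**
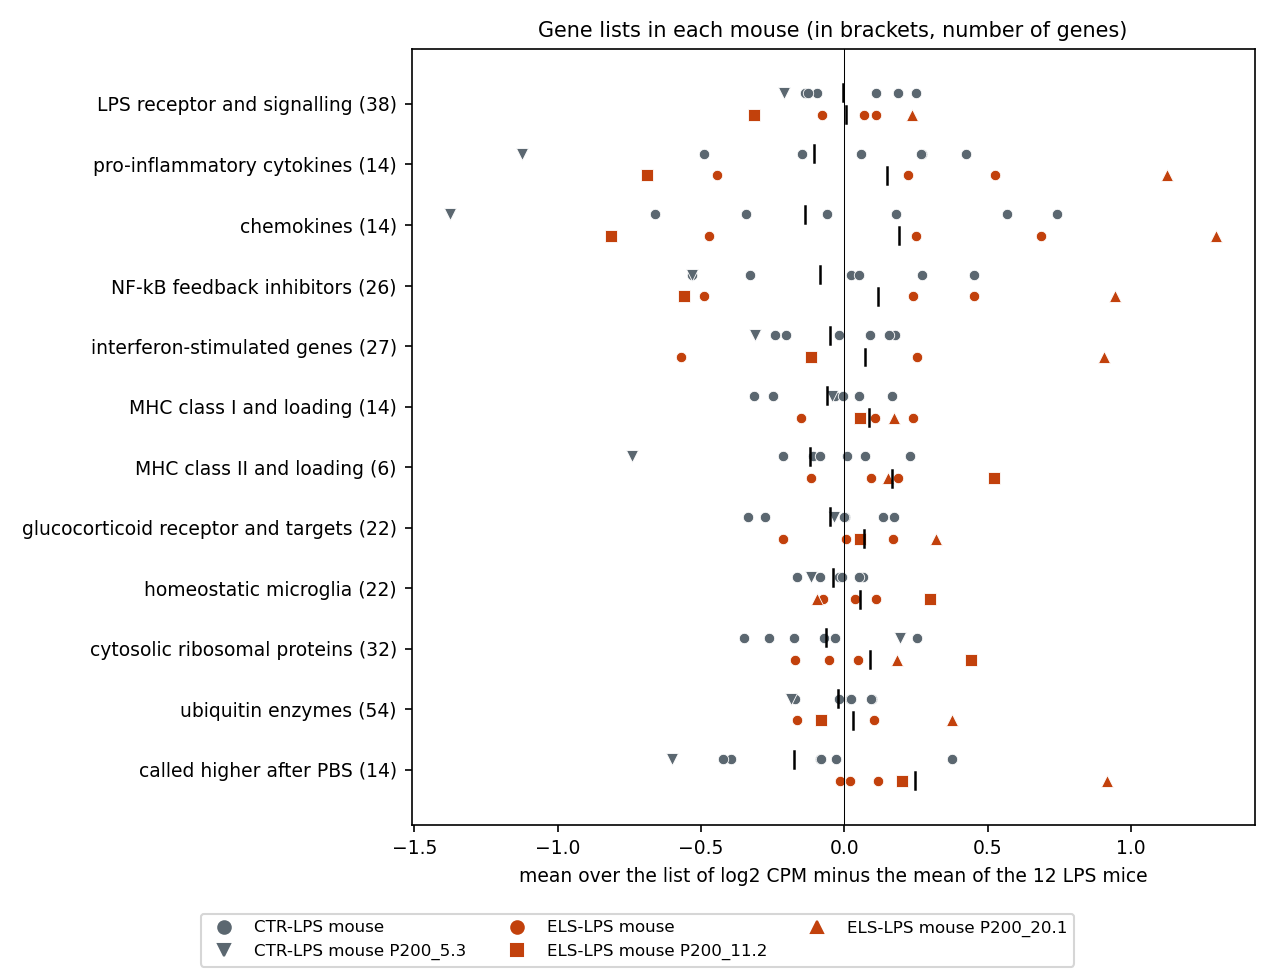
Mean over each gene list of log2 CPM minus the 12-mouse mean (x axis, log2 units; members with a mean log2 CPM of at least 1, their number in brackets) in each CTR-LPS mouse (grey) and ELS-LPS mouse (orange), with black lines at the group means. ELS-LPS mouse P200_20.1 has the highest value of the 12 mice in cytokines, chemokines, NF-kB feedback inhibitors, interferon-stimulated genes and ubiquitin enzymes, while mouse P200_11.2 has the highest in class II, homeostatic and ribosomal genes.

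Genes of the glucocorticoid axis had 15 positive and 9 negative log2 fold changes among 24 tested, with 0 called, 4 higher and 0 lower at an unadjusted p under 0.05 and a median of 0.07. Without mouse P200_20.1, 1 member was at an unadjusted p under 0.05 and the median was 0.04. Cebpd, a transcription factor that glucocorticoids and LPS both induce, was at 39.7 to 187 CPM in CTR-LPS (median 92.8) and at 111, 185, 136, 35.7 and 646 CPM in ELS-LPS. Mouse P200_20.1 was far above and mouse P200_17.3 below all CTR-LPS mice, and the log2 fold change of 1.19 ± 0.47 was 0.26 without mouse P200_20.1. Among the stress pathways, 15 of 20 immediate early genes (median 0.18), 13 of 20 genes of the integrated stress and unfolded protein response (0.06), 6 of 12 heat shock genes (0.00) and 16 of 19 NRF2 and antioxidant genes (0.23) were positive, with 0 called in any of them and 0, 1, 1 and 1 at an unadjusted p under 0.05. The NRF2 median was 0.09, 0.10 and 0.12 without mice P200_11.2, P200_20.1 and P200_5.3, the immediate early median was 0.09 without mouse P200_11.2, and the medians of the other two lists stayed within 0.1 of 0. Herpud1, a component of endoplasmic reticulum-associated degradation, was at 1114 to 1587 CPM in CTR-LPS (median 1343) and at 1582, 1063, 1768, 1869 and 2271 CPM in ELS-LPS, with a log2 fold change of 0.34 ± 0.13, or 0.22 without mouse P200_20.1. Ftl1, the ferritin light chain, was at 1416 to 2253 CPM in CTR-LPS (median 1834) and at 1986, 1980, 4025, 1963 and 1893 CPM in ELS-LPS. Without mouse P200_11.2 its log2 fold change fell from 0.37 to 0.09.

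Cytosolic ribosomal protein genes were positive in 30 of 32 cases, with 0 called, 2 at an unadjusted p under 0.05 and a median of 0.15, and all 32 intervals lay between -1 and 1. Mouse P200_11.2 had the highest value in 19 of the 32, and without it the median was 0.03. Rpl8 was at 124 to 182 CPM in CTR-LPS (median 174) and at 188, 162, 304, 174 and 192 CPM in ELS-LPS, and Rpl8, Rpsa and Ftl1 have processed copies in the genome that could share their reads. Glycolytic genes (16 of 18 positive, median 0.15), cholesterol genes (8 of 22 positive, median -0.08) and cell cycle genes (17 of 30 positive, median 0.07) had 0 called. Without mouse P200_11.2 the cholesterol and cell cycle lists turned, to 13 of 22 positive (median 0.02) and 14 of 30 positive (median -0.09), and the glycolytic median was 0.10. Of 24 microtubule and cell projection genes 5 were positive and 19 negative, with 0 called, 1 higher and 3 lower at an unadjusted p under 0.05 and a median of -0.17. In that list Arap3, a GTPase-activating protein, was at 46.0 to 132 CPM in CTR-LPS (median 52.5) and at 52.09, 48.2, 36.4, 44.5 and 45.2 CPM in ELS-LPS, and Tubb4b, a beta-tubulin, was at 22.0 to 37.3 CPM (median 25.9) and at 34.8, 37.2, 44.1, 29.5 and 40.5 CPM. The ubiquitin enzymes were evenly divided, 27 of 54 each way with a median of -0.01, or 19 of 54 positive with a median of -0.04 without mouse P200_20.1, although mouse P200_20.1 had the highest value in 21 of the 54. The 2 members with an unadjusted p under 0.05 were Ube2j2, an E2 enzyme of the endoplasmic reticulum, at 11.9 to 15.9 CPM in CTR-LPS (median 12.8) and at 10.7, 19.6, 20.0, 19.8 and 21.5 CPM in ELS-LPS, and Rnf128, an E3 ligase, which was highest in mouse P200_20.1 at 45.6 CPM and at no more than 22.2 CPM in CTR-LPS. Peli1, an E3 ligase of TLR signalling, was at 31.9 to 63.8 CPM in CTR-LPS (median 54.2) and at 37.9, 67.9, 39.6, 48.3 and 235 CPM in ELS-LPS. Its log2 fold change of 0.72 was -0.10 without mouse P200_20.1.

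The study's text names genes that responded to LPS in ELS or in CTR mice, and these lists were drawn from the same samples, so their direction here is no independent evidence. The genes it names for ELS after PBS came from PBS mice of the same nests. Of 12 tested genes named as higher after LPS in ELS mice, 11 had a positive log2 fold change between ELS-LPS and CTR-LPS (median 0.65, or 0.22 without mouse P200_20.1), and of 12 named as lower, 11 had a negative one (median -0.59). Of 12 named as higher after LPS in CTR mice 9 were negative (median -0.55, or -0.28 without mouse P200_20.1), and of 13 named as lower 7 were positive (median 0.18). Of genes named as higher with ELS after PBS, 9 of 11 were positive after LPS (median 0.50, or 0.30 without mouse P200_20.1), and of those named as lower 4 of 5 were negative (median -0.83). Among them, Trim27, an E3 ubiquitin ligase, was at 23.1 to 42.9 CPM in CTR-LPS (median 29.5) and at 30.1, 29.6, 37.1, 23.3 and 106 CPM in ELS-LPS. C1qbp, a mitochondrial matrix protein that also binds complement C1q, was at 8.87 to 23.4 CPM in CTR-LPS (median 19.19) and at 25.2, 27.4, 35.6, 17.4 and 52.7 CPM in ELS-LPS, where 4 mice exceeded every CTR-LPS mouse. In these 6 lists 0 genes were called between the LPS groups. Many of their members were at a low level. A mean log2 CPM of at least 1 was reached by 4 of 12 genes named as higher after LPS in ELS mice (median 0.28). For those named as lower it was 6 of 12 (median -0.48). For genes named as higher and lower in CTR mice it was 3 of 12 and 4 of 13 (medians -0.21 and 0.26). For genes named with ELS after PBS it was 5 of 11 higher (median 0.50) and 0 of 5 lower.

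The effect of ELS seen after PBS was then followed into the LPS mice. These were other mice from the same nests, so the contrasts after PBS and after LPS do not rest on independent nests. The 26 genes called between ELS-PBS and CTR-PBS were chosen on that contrast, so their values after PBS are a description. Of the 19 higher after PBS, 15 had a positive and 4 a negative log2 fold change after LPS, 4 higher and 1 lower at an unadjusted p under 0.05, with a median of 0.34 after LPS and of 1.72 after PBS. The median after LPS was 0.06 without mouse P200_20.1, which had the highest value of the 12 mice in 9 of the 14 members with a mean log2 CPM of at least 1. Of the 7 lower after PBS, 4 were positive and 3 negative after LPS, with medians of 0.01 after LPS and -4.56 after PBS. In all 26 the absolute log2 fold change was smaller after LPS, which is the side that the choice on the PBS contrast favours.

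Ddit4, a stress-induced inhibitor of mTORC1 and a glucocorticoid target, had a log2 fold change of 3.39 after PBS (adjusted p = 0.00685) and of 0.07 ± 0.57 after LPS. Its level after LPS was 10.3 to 63.6 CPM in CTR mice (median 25.4) and 32.8, 37.6, 34.0, 20.7 and 35.0 CPM in ELS mice, all within the CTR range. Plbd2, a lysosomal phospholipase-like protein, had log2 fold changes of 1.72 after PBS and 0.95 ± 0.41 after LPS, at 18.9 to 71.4 CPM in CTR-LPS (median 36.0) and 69.6, 57.1, 74.7, 49.9 and 103 CPM in ELS-LPS. Here all 5 ELS-LPS mice lay above the CTR-LPS median and 2 above the maximum. Crtap, a collagen prolyl hydroxylase partner, and F8a, a huntingtin-associated protein, had log2 fold changes of 2.31 and 1.78 after PBS and of 0.93 and 0.81 after LPS (0.58 and 0.51 without mouse P200_20.1). Il27ra, the receptor of interleukin-27, and H2-Q5, a class I gene with near-identical copies, had log2 fold changes of 6.92 and -5.81 after PBS and of -0.08 ± 1.13 and 0.41 ± 0.92 after LPS. Their 95% intervals after LPS were wide, from -2.34 to 2.18 and from -1.44 to 2.26. Ripk1, a kinase of inflammatory cell death and NF-kB signalling, was at 14.2 to 61.0 CPM in CTR-LPS (median 39.4) and at 26.9, 41.9, 35.7, 30.5 and 60.4 CPM in ELS-LPS.

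**Figure D4:**
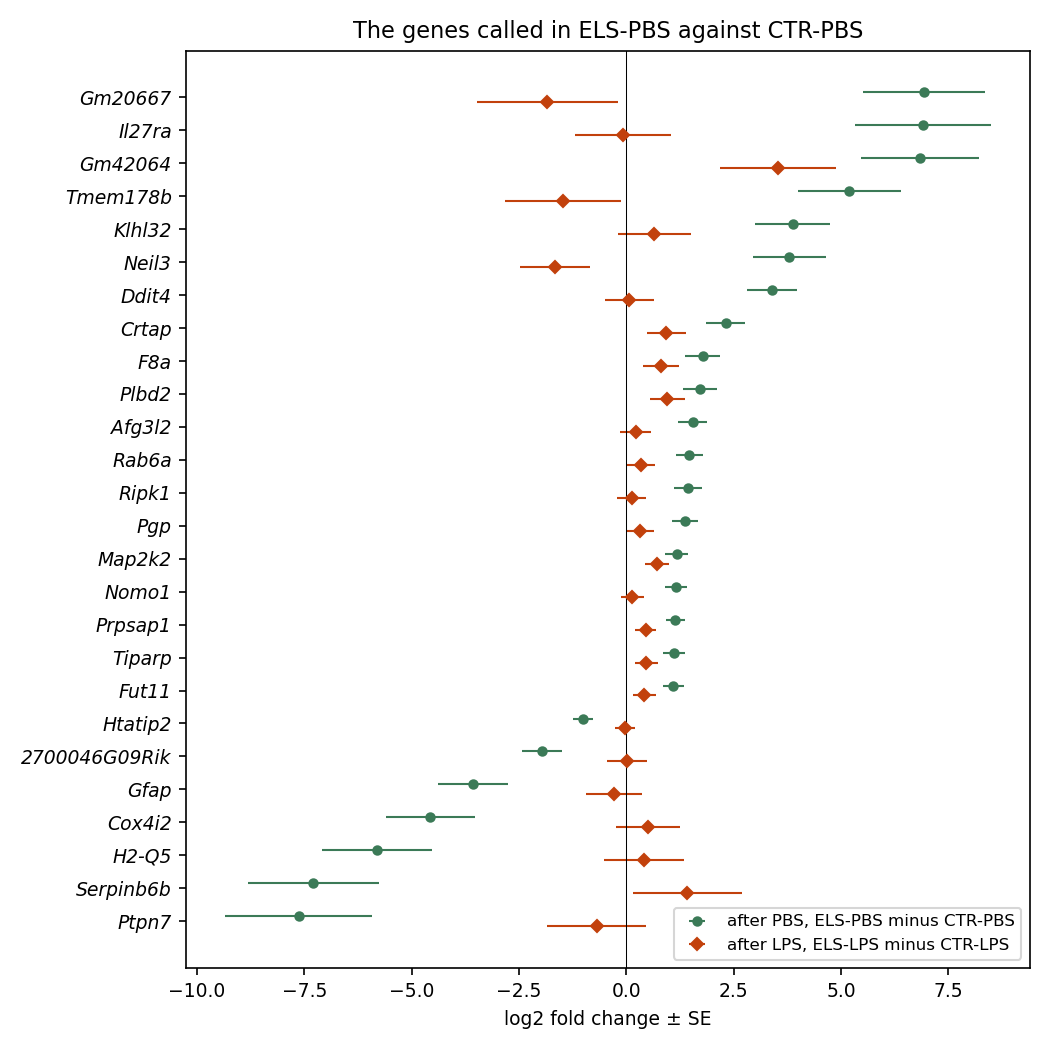
Log2 fold change ± SE (x axis) of the 26 genes called between ELS-PBS and CTR-PBS (green circles), with the same genes between ELS-LPS and CTR-LPS (orange diamonds). The genes were chosen for their values after PBS. After LPS 15 of the 19 upper genes and 4 of the 7 lower genes have a positive value, and every absolute value is smaller than after PBS.

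Whether the effect of ELS differed between LPS and PBS was tested for all genes with the interaction term. It gave 0 of 16696 genes (0.0%) at an adjusted p under 0.05 and 980 genes (5.87%) at an unadjusted p under 0.05 by the edgeR quasi-likelihood test, and 66 by the likelihood-ratio test. Of the 26 genes called after PBS, 20 had an interaction p under 0.05, with the smallest adjusted p at 0.127, but the PBS contrast that chose them is part of the interaction, so nothing is read from this count. Leaving out CTR-LPS mouse P200_18.3 gave 4 genes (Neil3, Pcdh19, Phactr3 and Serpinb6b) and leaving out ELS-LPS mouse P200_4.2 gave 1 (Phactr3).

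The fold changes were related to transcript length. Over 6543 genes with a mean log2 CPM of at least 4, the Spearman correlation across genes of log2 fold change with the length of the canonical transcript was -0.42, and ordered by length in 4 bins of equal size, from the shortest (up to 2073 bases) to the longest, the medians of the log2 fold change were 0.12, 0.04, -0.03 and -0.11. Genes of 1 set of libraries are not independent, so this is a description. It rested mostly on mouse P200_11.2, whose shortest bin stood 0.81 log2 units above its longest, while the same difference was -0.28 to 0.15 in the other 11 mice. Without mouse P200_11.2 the correlation was -0.11 and the medians were 0.01, 0.02, 0.01 and -0.04, and leaving out any other single mouse gave -0.47 to -0.32. Between ELS-PBS and CTR-PBS the correlation had the opposite sign, at 0.23, with medians of -0.11, -0.02, 0.02 and 0.04. The 10 higher genes named above had a median transcript length of 2350 bases and the 10 lower genes one of 7350 bases, against 3199 bases for all genes with a mean log2 CPM of at least 1. Ribosomal protein, class II and homeostatic genes, with medians of 1340, 1308 and 2442 bases, lay on the short side. Their mean log2 deviations in mouse P200_11.2 were 0.44, 0.52 and 0.30. Chemokine and cytokine genes, with medians of 1111 and 2272 bases, were also short, but their deviations in this mouse were -0.81 and -0.69. What part length had in these results was not tested.

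**Figure D5:**
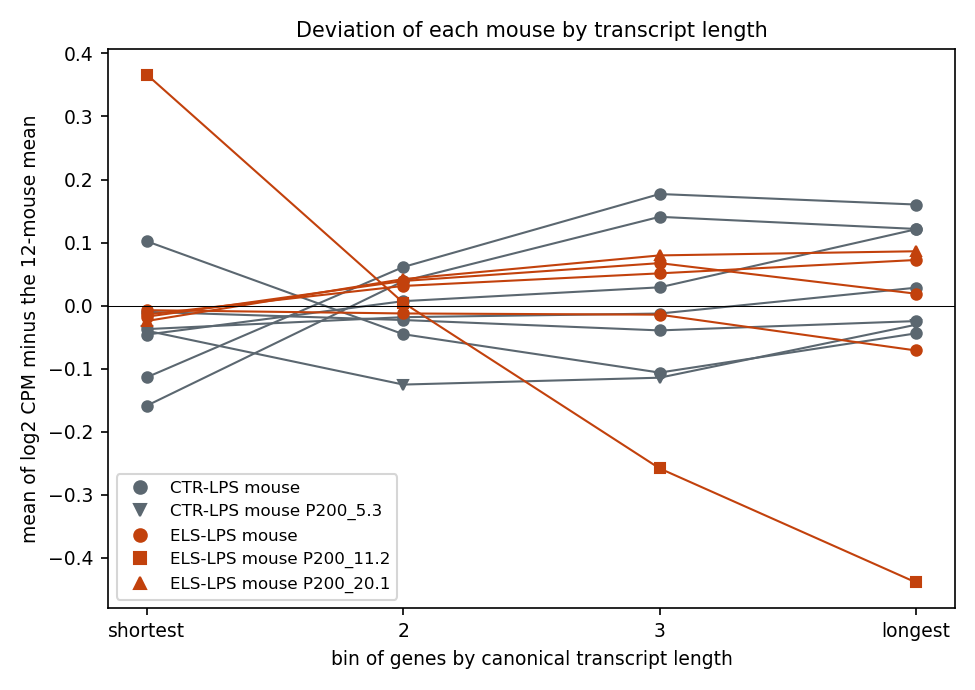
Mean deviation of log2 CPM from the 12-mouse mean (y axis, log2 units) in each of 4 bins of 6543 genes ordered by canonical transcript length (x axis), 1 line per mouse, CTR-LPS in grey and ELS-LPS in orange. ELS-LPS mouse P200_11.2 falls from 0.37 in the shortest to -0.44 in the longest bin, and the other 11 mice stay between -0.16 and 0.18.

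The mice of the ELS-LPS group also varied more among themselves, again through mouse P200_11.2. Over 6551 genes with a mean log2 CPM of at least 4 the median standard deviation of log2 CPM was 0.28 in CTR-LPS and 0.34 in ELS-LPS, and 60.17% of genes had the larger value in ELS-LPS. Without mouse P200_11.2 the ELS-LPS median was 0.23 and the share 35.11%, and without mouse P200_20.1 they were 0.35 and 58.74%. All CTR-LPS mice were kept in these comparisons, including P200_5.3, so only the ELS-LPS group lost a mouse that stood apart. On the first principal component of the 12 mice, which held 15.89% of the variance, the ELS-LPS mice lay at -45.9, 19.13, 19.9, -15.9 and -51.5 and the CTR-LPS mice from -46.5 to 91.1 (median 23.3), with mouse P200_5.3 at the top. The difference of the means was -25.5 with a two-sided exact permutation p of 0.336, so the position of the groups did not differ beyond the spread between mice. The permutation treated single mice as independent, although some CTR-LPS mice shared a nest.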

How the data were processed

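Gene expression was measured by RNA sequencing of sorted hippocampal microglia, 1 library per mouse. The deposited values were raw counts per gene, which the authors made with bcl2fastq 2.20, cutadapt 2.10, STAR and HTSeq 0.11.0 on GRCm39. The annotation release and strand setting are not given in the sources used here, so genes that overlap on opposite strands could share reads. Multi-copy genes could too.

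The 50 mice include 12 CTR and 13 ELS mice of postnatal day 9, which entered the filter, the scaling and the fit. Genes that reached 1 CPM in over 2 of all 50 mice were tested (16696 of 53700). They were scaled by TMM and fitted with 1 mean per group over all 50 mice in edgeR 4.0.16 (quasi-likelihood test, R 4.3.3), with p-values adjusted by Benjamini and Hochberg over all genes. A gene was called where its adjusted p was below 0.05 with its log2 fold change beyond 1 in size, and for the interaction at an adjusted p under 0.05. Values in CPM are TMM-scaled, and log2 CPM used a prior count of 2. Each mouse is 1 replicate, and p-values measure the spread between mice, some of which shared a nest. Intervals are at 95%. No 2 libraries of the same LPS group agreed within sampling noise.

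Members and gene lists were chosen with earlier results of these data known. Genes named were those called, up to 10 per direction with the smallest p and a mean log2 CPM of at least 1, up to 4 per list by p, the genes named in the study's text, up to 6 genes called after PBS, and the cell type markers; exceptions are stated. Alternatives were the edgeR likelihood-ratio and robust tests, DESeq2 1.42.0, limma 3.58.1 voom with the nest as random effect, other filters and scaling, fewer groups, counts summed per nest and each mouse left out. Coordinates and transcript lengths came from GENCODE for GRCm39 (52610 of 53700 genes matched) and promoters from RefSeq for GRCm38.p6. The first principal component was compared by an exact permutation test. No sequencing batch is given in the labels.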

Additional observations from a re-analysis of the deposited data

Results flagged for a closer look

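In 32 of 156 per-mouse values checked, 1 mouse lay far from the rest of its group by Dixon's test at the 95% level. Chance gives about 1 in 20 for independent, normally distributed values. The values here, mostly CPM of genes from the same 12 libraries, are not independent, so that rate is only a guide. Of the 32 values, 12 were in ELS-LPS mouse P200_11.2. It was the highest of its group in Ppdpf (40.7 CPM), Arl6ip4 (51.9 CPM), Slc25a1 (58.6 CPM), Itm2c (1837 CPM), H2-DMa (599 CPM), Trem2 (4058 CPM), Tyrobp (1678 CPM), Ftl1 (4025 CPM), Rpl8 (304 CPM) and Tmem119 (12060 CPM) and the lowest in Tbk1 (32.6 CPM), and its difference between short and long transcripts was 0.81 log2 units. In ELS-LPS mouse P200_20.1 there were 8, each the highest of its group: Ifit3b (8.16 CPM), Il12b (392 CPM), Dusp1 (2375 CPM), Socs1 (28.7 CPM), Cebpd (646 CPM), Rnf128 (45.6 CPM), Peli1 (235 CPM) and Trim27 (106 CPM).

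CTR-LPS mouse P200_5.3 had the lowest Nudt9 (5.29 CPM) and the highest Ppp1r13b (13.2 CPM), L3mbtl3 (10.6 CPM) and Xpr1 (62.2 CPM) of its group. The other values were Itm2c in CTR-LPS mouse P200_1.2 (1063 CPM, lowest), Hp in CTR-LPS mouse P200_18.3 (1.75 CPM, highest), Ube2j2 in ELS-LPS mouse P200_2.2 (10.7 CPM, lowest), Ppp1r13b and Il27ra in ELS-LPS mouse P200_4.2 (15.8 CPM, highest, and 1.05 CPM, lowest), and Ralgps2, Nf1 and Ddit4 in ELS-LPS mouse P200_17.3 (31.3 and 35.6 CPM, highest, and 20.7 CPM, lowest). What set these mice apart was not tested.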

How the results depend on the processing

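No gene was called between ELS-LPS and CTR-LPS in 22 of 25 other settings. The likelihood-ratio test called 10 genes, 7 higher (B230209E15Rik, Dpysl3, Grm3, Igf1, Mpzl1, Rtkn and Wdr31) and 3 lower (Homer2, Nes and Nusap1), DESeq2 called 2, and leaving out 1 mouse called 0 to 1, the 1 being Mpzl1 without mouse P200_20.1. Genes at an unadjusted p under 0.05 numbered 691 to 886 with 1 mouse left out and 338 to 2490 under the other settings, the lowest with a filter of 1 CPM in 5 or more of the 12 mice and the highest with no filter. For the interaction the likelihood-ratio test called 66 genes, and leaving out 1 mouse called 0 to 4. The difference on the first principal component was 15.43 with unit variance per gene, of the opposite sign, with an arbitrary sign of the axis, and -36.19 to -16.07 with 1 mouse left out. The cause was not tested in any of these.

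Of 74 named genes with 1774 values under the alternatives, 1747 kept their sign and their side of the threshold. The sign changed in 22 values of 10 genes, all with intervals that included 0. With limma voom the log2 fold changes of Tnf, Il6, Ptgs2, Trem1 and Il27ra were -0.067, -0.097, -0.39, -0.14 and 0.15. Without mouse P200_20.1 those of Tnf, Il1b, Il6, Ptgs2, Trem1, Peli1, Ripk1 and H2-Q5 were -0.29, -0.028, -0.10, -0.18, -0.063, -0.099, -0.090 and -0.025. Without another single mouse, Il6 reached -0.12 and -0.014, Ripk1 -0.017, Ddit4 -0.080 and -0.0097, and Il27ra 0.019, 0.12, 0.031 and 0.093. Mpzl1 and Nusap1 passed the threshold in the 5 cases given above, with log2 fold changes of 3.56 (likelihood-ratio test), 3.62 (DESeq2) and 3.85 (1 mouse left out) for Mpzl1 and of -2.72 and -2.76 for Nusap1. No paired analysis was possible between ELS and CTR mice because the labels give no pairing of the 2 conditions. No number before the point in the labels, taken here as the nest, occurred in both conditions. Every nest of postnatal day 200 did hold both PBS and LPS mice. The contrasts of LPS with PBS and the interaction could therefore have been blocked by nest. They were fitted here with 1 mean per group, and such a block was not tested. For most genes with a mean log2 CPM under 1 the depth and the 12 mice did not exclude a difference of 2-fold or more. The alternatives that left out mice P200_5.3 and P200_11.2 together, and those for length and spread, were chosen after seeing the data.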

Other observations

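The response to LPS was also counted within each condition, with each group of LPS mice set against its own PBS group. Over all genes, 6.02% were called higher after LPS in CTR mice and 4.69% in ELS mice. Chemokine genes were called higher after LPS in 14 of 17 cases in CTR mice and 15 of 17 in ELS mice, with median log2 fold changes of 4.23 and 5.2, and cytokine genes in 9 and 10 of 15, with medians of 2.35 and 2.65. Interferon-stimulated genes were called higher in 6 of 35 cases in CTR mice and 12 of 35 in ELS mice (medians 0.53 and 1.04), and acute-phase genes in 6 and 9 of 14. Glucocorticoid receptor targets went the other way, called higher in 17 of 24 cases in CTR mice and 12 of 24 in ELS mice (medians 2.86 and 1.99). NF-kB feedback inhibitors were called higher in 22 and 20 of 28 cases, with medians of 2.69 and 2.70. Each response also carries the difference between the PBS groups. The median log2 fold change of ELS-PBS over CTR-PBS was 0.56 for glucocorticoid targets, -0.27 for chemokines and -0.21 for interferon-stimulated genes. It was 0.02 for cytokines, -0.01 for acute-phase genes and 0.08 for feedback inhibitors. Group sizes differed between conditions, and the difference between the 2 responses is the interaction, in which 0 members of these lists were called.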
